A study of Homo sapiens with 6 samples.

Results

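The 10 genes described here are those of the YAP/TEAD pathway, namely the co-activators YAP1 and WWTR1 (which encodes TAZ), the transcription factors TEAD1 and TEAD4, the kinases LATS1 and LATS2, the scaffold AMOTL2 and the target genes CYR61 (CCN1), CTGF (CCN2) and ANKRD1. They were taken by symbol from the 58735 genes of the deposited expression table, where all 10 were found. The cells were PANC-1, a line established from a human ductal adenocarcinoma of the pancreas. RNA was sequenced from 3 cultures given a control siRNA (si-NC, control cells) and from 3 in which siRNA silenced METTL16 (si-METTL16, silenced cells), an RNA methyltransferase that places N6-methyladenosine. The methods call the replicates biological triplicates and the cells stably transfected. For METTL16 silencing in PANC-1 the methods name short hairpin RNA, but for the sequenced cells they name siRNA. The methods describe puromycin selection of stable knockdown cells but do not say at what time the sequenced cells were taken. The 3 siRNA sequences listed for METTL16 are not tied to the sequenced cells, and 1 label of the control samples reads WT although their titles name a control siRNA. The comparison asks how the pathway and its targets stood in METTL16-silenced cells.

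In the Hippo pathway, a kinase cascade ending in LATS1 and LATS2 phosphorylates YAP and TAZ and keeps them out of the nucleus. Unphosphorylated YAP and TAZ enter the nucleus, where they bind TEAD factors and activate growth and matrix genes, CYR61, CTGF and ANKRD1 being the classical readouts. Angiomotin proteins such as AMOTL2 hold YAP in the cytoplasm. Some negative regulators, LATS2 and AMOTL2 among them, are themselves transcribed by YAP and TEAD. RNA levels do not show phosphorylation or location of YAP and TAZ.

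The total counts ranged from 15725298 to 18054436 per library, so that 3 counts correspond to 0.166 to 0.191 CPM (counts scaled by library size), and the lowest count of any of the 10 genes in any library was 216. METTL16 itself had 5.47, 5.78 and 6.02 FPKM (counts scaled by library size and by a length for each gene) in si-NC replicates 1, 2 and 3, and 2.04, 2.00 and 2.06 FPKM in the si-METTL16 replicates, which leaves 35.9% of the control level (adjusted p = 8.3e-05). The length behind the deposited FPKM exceeded the whole span of 12 of 119 listed genes with an FPKM above 0, among them FOS, FOSB and GADD45A, so FPKM is used here to compare libraries for the same gene or list. Levels of different genes are compared as CPM per kilobase of exon, over the merged exons of the gene in GENCODE v44. Of 6 ductal epithelial markers, 5 were present at a mean of at least 1 FPKM, and the list summed to between 309 and 411 FPKM in control and between 326 and 363 FPKM in silenced cells. Within that list KRT19 fell (log2 fold change -1.40, adjusted p = 0.00111), as did KRT7 and CDH1, where 17.5% of all genes tested were called lower. KRT8, KRT18 and EPCAM were not called (log2 fold changes -0.23, 0.20 and 0.44). Of 13 markers of other cell types, only CD68 and COL1A1 reached 1 FPKM, and CPA1 and GCG had no count in any library. Their sum was 26.4 to 30.2 FPKM in control and 62.9 to 66.1 FPKM in silenced cells, and without COL1A1, a collagen gene, it was 1.26 to 1.37 and 1.73 to 2.03 FPKM. COL1A1 rose by 1.27 on the log2 scale (adjusted p = 9.4e-05) and CD68, a macrophage marker, by 0.67 (adjusted p = 0.00928), while COL1A2, DCN and LUM stayed below the filter on low counts. CD68 overlaps AC016876.2, which held 2076 counts beside 717 for CD68, and reads of overlapping genes may be shared. The part of these marker shifts in the results below was not tested. In RNA from whole cultures, a change in every cell and a change in some of the cells cannot be told apart.

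After silencing of METTL16, 7 of the 10 genes rose and 1 fell. The target genes ANKRD1 and CYR61 and the transcription factor TEAD4 rose most, to 3.45, 2.21 and 2.16 times the control level. YAP1, TEAD1, LATS2 and AMOTL2 rose by factors of 1.26 to 1.59, and WWTR1 fell to 68.6% of its control level. CTGF and LATS1 did not pass the test. All 10 genes passed the filter on low counts. Among all 15089 genes tested, 35.9% were called in either direction, 18.4% were called higher and 17.5% lower. The median log2 fold change of the 10 genes was 0.50, beside -0.00449 over all genes tested. Control and silenced libraries lay apart, without overlap, for 8 of the 10 genes, where 50.9% of all genes tested had values that did not overlap. Calls rest on an adjusted p under 0.05 from edgeR's quasi-likelihood test, and errors of log2 fold changes are standard errors.

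**Figure D1:**
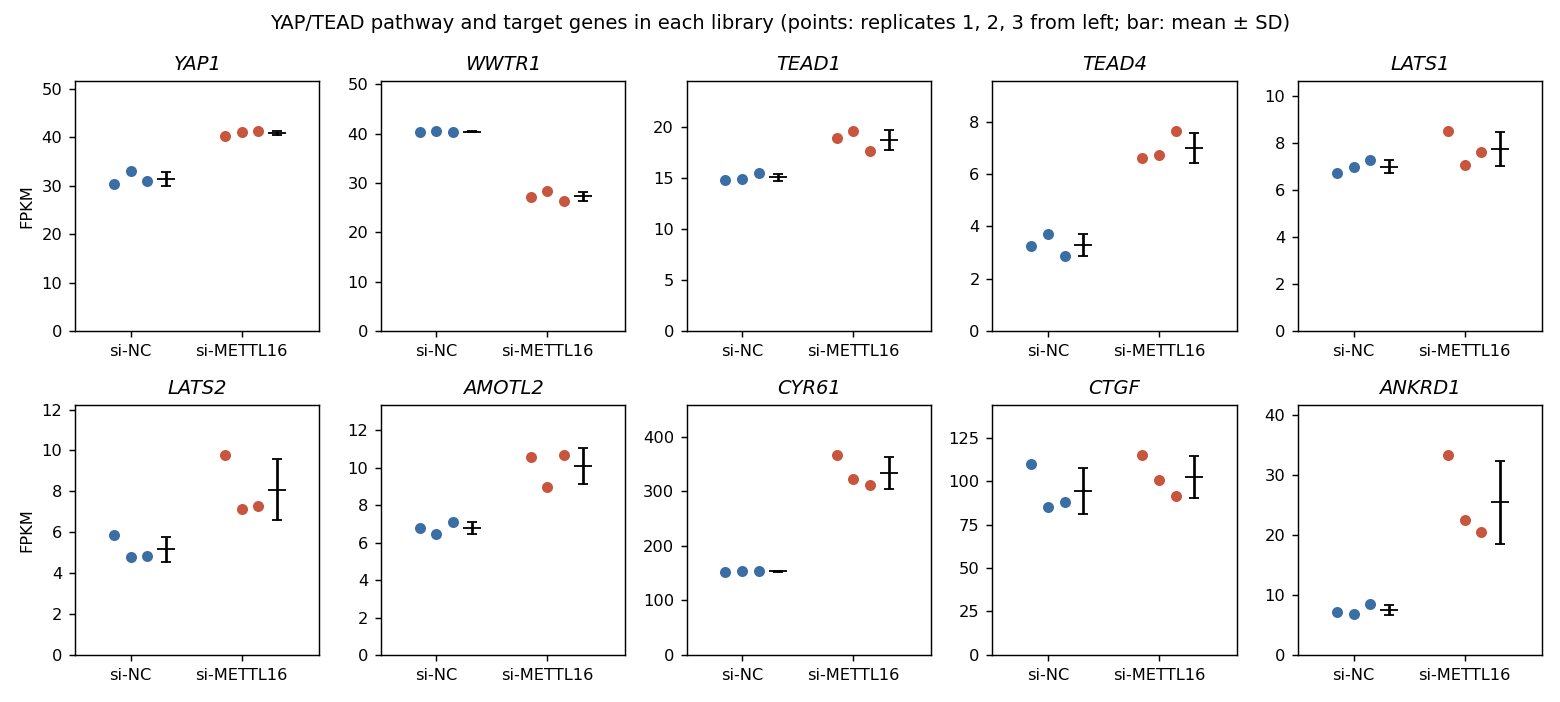
FPKM (vertical axis, from 0) of the 10 genes in the 3 si-NC libraries (blue) and the 3 si-METTL16 libraries (red), with the mean ± SD of each group as a black bar. The groups lie apart in 8 panels and overlap for LATS1 and CTGF; WWTR1 is the gene whose silenced libraries lie below the controls.

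The pair of co-activators moved in opposite directions. YAP1 (chromosome 11 from 102110461 to 102233423, GRCh38) had 30.3, 33.1 and 30.9 FPKM in si-NC replicates 1, 2 and 3, and 40.3, 41.0 and 41.2 FPKM in the si-METTL16 replicates. Every silenced library lay above every control library. The log2 fold change was 0.40 ± 0.05 (adjusted p = 0.00137). WWTR1 (chromosome 3 from 149517235 to 149736714) had 40.3, 40.5 and 40.3 FPKM in control cells, the closest triplet of the 10 genes, and 27.2, 28.3 and 26.4 FPKM in silenced cells. All 3 silenced libraries lay below all 3 controls (log2 fold change -0.54 ± 0.05, adjusted p = 0.000348). In CPM per kilobase of exon, WWTR1 stood above YAP1 in each control library and below it in each silenced library, and this order was the same with the longest transcript as the length of each gene. YAP1 made up 45.6% ± 1.05 of their summed CPM per kilobase in control cells and 61.8% ± 0.916 in silenced cells (SD, n = 3). With the longest transcript as length the shares were 37.2% and 53.2%. The sum itself was 114 ± 2.56 CPM per kilobase in control and 110.9 ± 1.60 in silenced cells. With the longest transcript as length it was 163 ± 3.09 and 150 ± 2.61, so the size of its fall depends on the length used. The log2 ratio of YAP1 to WWTR1 differed by 0.94 ± 0.05 between the groups, without overlap (two-sided exact permutation test, p = 0.1, the smallest that 3 libraries against 3 allow). This was 1 of 4 such pairs, and the Benjamini-Hochberg adjusted permutation p was 0.1 for each of them.

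The TEAD factors, which carry the DNA-binding domain of the complex, did not move as a family. TEAD1 (chromosome 11 from 12674591 to 12944483) was the most abundant of the 4 TEAD genes per kilobase of exon in all 6 libraries. Its FPKM values were 14.8, 14.98 and 15.5 in control and 19.0, 19.6 and 17.7 in silenced cells. It rose in all 3 silenced libraries relative to each control (log2 fold change 0.34 ± 0.06, adjusted p = 0.00454). TEAD4 (chromosome 12 from 2959330 to 3040673) had 3.27, 3.73 and 2.87 FPKM in control and 6.61, 6.72 and 7.65 FPKM in silenced cells. Its groups were far apart, and the log2 fold change was 1.11 ± 0.12 (adjusted p = 0.000714). The log2 ratio of TEAD1 to TEAD4 was lower by 0.76 ± 0.16 in silenced than in control cells (exact permutation p = 0.1, the smallest possible). The other two TEAD genes were measured as well. TEAD2 fell from 8.87 ± 0.390 to 4.70 ± 0.523 FPKM (log2 fold change -0.89 ± 0.10, adjusted p = 0.000836). TEAD3 had 2.63 ± 0.192 FPKM in control and 2.57 ± 0.214 FPKM in silenced cells and was not called (log2 fold change -0.01, 95% confidence interval -0.31 to 0.29). Of the summed CPM per kilobase of the 4 TEAD genes, TEAD4 made up 14.1% ± 1.84 in control and 27.0% ± 2.10 in silenced cells, while TEAD2 made up 33.8% ± 1.10 and 16.2% ± 1.75. The sum was 44.1 ± 0.991 CPM per kilobase in control and 49.6 ± 0.299 in silenced cells.

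**Figure D2:**
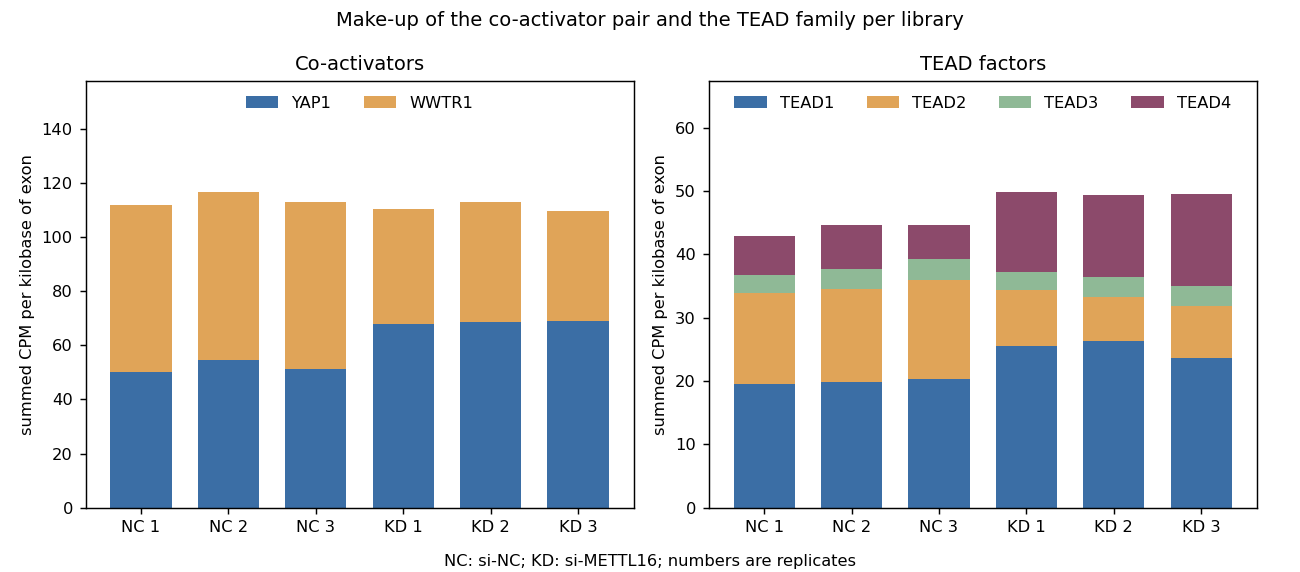
Summed CPM per kilobase of exon (vertical axis) of YAP1 and WWTR1 (left) and of TEAD1 to TEAD4 (right) in each library, NC standing for si-NC and KD for si-METTL16, with the genes stacked. YAP1 takes 44.8% to 46.8% of the left bars in control and 61.0% to 62.8% in silenced cells, and on the right TEAD4 widens as TEAD2 narrows.

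Of the kinases that restrain YAP and TAZ, LATS2 rose and LATS1 was not called. LATS2 (chromosome 13 from 20973032 to 21061547) had 5.89, 4.80 and 4.82 FPKM in control and 9.79, 7.16 and 7.26 FPKM in silenced cells. In both groups replicate 1 was the highest, and the groups did not overlap. The log2 fold change was 0.66 ± 0.15 (adjusted p = 0.0138). It was 0.61 both without si-NC replicate 3 (adjusted p = 0.0508) and without si-NC replicate 2 (adjusted p = 0.0492). The call thus lay close to the threshold with either library left out. LATS1 (chromosome 6 from 149658153 to 149718256) had 6.75, 6.98 and 7.28 FPKM in control and 8.52, 7.08 and 7.64 FPKM in silenced cells. Replicate 2 of the silenced cells lay within the control range, and the log2 fold change was 0.17 (95% confidence interval -0.03 to 0.36, adjusted p = 0.160). Per kilobase of exon LATS1 stood above LATS2 in all 6 libraries, and LATS2 made up 32.3% ± 3.29 of their sum in control and 40.1% ± 2.33 in silenced cells. The log2 ratio of LATS1 to LATS2 differed by -0.48 ± 0.15 (exact permutation p = 0.1, the smallest possible).

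AMOTL2 (chromosome 3 from 134355874 to 134375479), the angiomotin-like scaffold, had 6.78, 6.44 and 7.10 FPKM in control and 10.6, 9.003 and 10.7 FPKM in silenced cells. Its groups did not overlap, and it rose (log2 fold change 0.60 ± 0.08, adjusted p = 0.00184). Its relatives went separate ways: AMOTL1 rose from 2.70 ± 0.127 to 4.68 ± 0.469 FPKM (log2 fold change 0.82, adjusted p = 0.000722), and AMOT fell from 2.88 ± 0.184 to 1.66 ± 0.227 FPKM (log2 fold change -0.77, adjusted p = 0.00287). AMOTL2 was the most abundant of the 3 per kilobase of exon in all 6 libraries, at 65.2% ± 2.19 of their sum in control and 69.6% ± 3.67 in silenced cells.

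The 3 classical target genes answered unequally. CYR61 (chromosome 1 from 85580761 to 85583962) encodes a secreted matrix protein of the CCN family and had the highest level of the 10 genes per kilobase of exon, 117 ± 0.729 CPM per kilobase in control cells. Its FPKM was 152, 154 and 154 in the si-NC replicates and 367, 323 and 312 in the si-METTL16 replicates. The lowest silenced library stood far above the highest control (log2 fold change 1.14 ± 0.07, adjusted p = 0.000121). ANKRD1 (chromosome 10 from 90912096 to 90921276), which encodes a nuclear and sarcomeric ankyrin-repeat protein, had 7.21, 6.77 and 8.45 FPKM in control and 33.3, 22.5 and 20.4 FPKM in silenced cells. It had the largest change of the 10 genes, a log2 fold change of 1.79 ± 0.20 (adjusted p = 0.000751), above 99.2% of all genes tested. Its silenced libraries also spread most, replicate 1 standing 1.63 times above replicate 3, and without si-METTL16 replicate 1 the log2 fold change was 1.54. CTGF (chromosome 6 from 131948176 to 131951373), a secreted matrix protein of the same family, had 109.6, 85.1 and 88.1 FPKM in control and 115, 100.4 and 91.4 FPKM in silenced cells. These ranges overlap, and the log2 fold change was 0.14 (95% confidence interval -0.15 to 0.43, adjusted p = 0.414). The upper end of that interval is below the lower end of the interval of CYR61, 0.97 to 1.31. The log2 ratio of CYR61 to CTGF was higher by 0.99 ± 0.12 in silenced than in control cells, without overlap (exact permutation p = 0.1, the smallest possible). CYR61 made up 55.7% ± 3.56 of their summed CPM per kilobase in control and 71.5% ± 0.745 in silenced cells. NOV, WISP1 and WISP3 of the CCN family stayed below the filter on low counts, and WISP2 (CCN5) fell from 9.36 ± 1.20 to 5.48 ± 0.466 FPKM (log2 fold change -0.75, adjusted p = 0.00256).

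Among the silenced libraries, replicate 1 had the highest FPKM for 5 of the 10 genes, namely LATS1, LATS2, CYR61, CTGF and ANKRD1. YAP1, TEAD4 and AMOTL2 were highest in replicate 3, and WWTR1 and TEAD1 in replicate 2. The silenced library with most CYR61 and ANKRD1 RNA was the one with least YAP1 and TEAD4. TEAD4, however, was nearly equal in silenced replicates 1 and 2 (6.61 and 6.72 FPKM), and a relation between these orders was not tested. For YAP1 the silenced libraries differed by a factor of at most 1.02, the smallest spread of the 10 genes in that group.

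The sequences before the start sites were examined because TEAD factors bind the MCAT-type motif GGAATG (reverse complement CATTCC). RefSeq windows on GRCh38.p14, reaching from 250 bases before to 50 bases after a start site, were at hand for 7 of the 10 genes (10 windows). TEAD1, TEAD4 and CYR61 had no window. The start sites are those of RefSeq and need not match the ends of the gene spans given above. Of the 7 genes, 5 held the motif, each in 1 window, so that 5 of the 10 windows held it. Of all 35116 windows, 14% hold it on either strand. CTGF held 3 copies, at 169, 104 and 95 bases before its start, and 0.128% of all windows hold 3 or more. ANKRD1 held 2 copies, 220 and 128 bases before its start (1.37% of all windows hold 2 or more). It also held TGATTCA 195 bases before the start, a match to TGANTCA. That pattern is a loose form of the AP-1 motif with any base at N, and 7.71% of windows hold it on either strand. In the ANKRD1 window the 2 motifs do not overlap. The ANKRD1 copy 128 bases before the RefSeq start lies inside the gene span given above, which ends at 90921276. LATS1 held 1 match to the loose AP-1 form (TGAATCA) and no TEAD motif, and neither of the 2 windows of WWTR1 held either motif. The windows of CTGF and ANKRD1 are shown in full because they carry the most copies and belong to the target that did not pass the test and the one that changed most. Capitals mark the motifs, and each sequence reads from 5′ to 3′ on the strand of the gene, the minus strand for both.
CTGF, chr6:131951323-131951622: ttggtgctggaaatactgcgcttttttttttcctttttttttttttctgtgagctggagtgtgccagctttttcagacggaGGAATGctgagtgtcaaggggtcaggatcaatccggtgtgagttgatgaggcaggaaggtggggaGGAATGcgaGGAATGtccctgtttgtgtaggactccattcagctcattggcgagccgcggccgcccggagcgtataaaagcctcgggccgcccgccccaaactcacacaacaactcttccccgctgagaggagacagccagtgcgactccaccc
ANKRD1, chr10:90921038-90921337: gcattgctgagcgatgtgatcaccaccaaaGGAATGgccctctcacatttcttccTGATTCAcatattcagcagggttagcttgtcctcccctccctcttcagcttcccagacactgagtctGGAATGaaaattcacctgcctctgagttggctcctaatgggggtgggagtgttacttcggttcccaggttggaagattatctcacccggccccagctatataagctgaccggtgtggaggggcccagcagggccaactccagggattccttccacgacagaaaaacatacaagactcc

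YAP1, AMOTL2 and LATS2 each held a single TEAD motif. It lies 162 bases before the start of YAP1, 69 bases before the start in 1 of the 2 windows of AMOTL2 (on the opposite strand, and so printed as CATTCC), and 9 bases after the start of LATS2. The LATS2 copy lies outside the gene span given above, which ends at 21061547. The 30 bases around each copy are shown with the motif in capitals, on the plus strand for YAP1 and the minus strand for the others. These matches describe the letters in the windows and were not tested for binding.
YAP1, chr11:102110273-102110302: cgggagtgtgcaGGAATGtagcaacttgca
AMOTL2, chr3:134374499-134374528: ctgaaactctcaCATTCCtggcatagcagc
LATS2, chr13:21061560-21061589: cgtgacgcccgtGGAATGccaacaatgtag

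The further targets were taken from a published YAP/TAZ expression signature, as recalled from general knowledge, which also holds CYR61, CTGF, ANKRD1, AMOTL2 and LATS2. Of the other 17 genes, all tested, 8 rose, 1 fell and 8 did not pass the test, so that 52.9% were called beside 35.9% of all genes tested. The median log2 fold change was 0.28. The 3 largest rises were those of NUAK2, a kinase of the AMPK family that acts on actomyosin, from 2.70 ± 0.193 to 7.25 ± 0.584 FPKM (log2 fold change 1.45, adjusted p = 0.000204), of F3, the tissue factor of coagulation (log2 fold change 1.33, adjusted p = 0.000828), and of FJX1 (log2 fold change 1.18, adjusted p = 0.000296). TGFB2, a TGF-beta ligand, and GADD45A, a growth arrest and DNA damage gene, both rose by 0.60 on the log2 scale (adjusted p = 0.00384 and 0.0143). CRIM1, a transmembrane protein that binds bone morphogenetic proteins, fell from 102 ± 1.96 to 63.3 ± 1.14 FPKM (log2 fold change -0.67, adjusted p = 0.000148). CTGF therefore stood with 8 signature genes that did not pass, and WWTR1 and CRIM1 were the called genes that fell among the 10 genes and the signature. Of the 12 signature genes with a RefSeq window, 5 held the TEAD motif, namely AXL, FOXF2, NUAK2, PTPN14 and TGFB2.

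**Figure D3:**
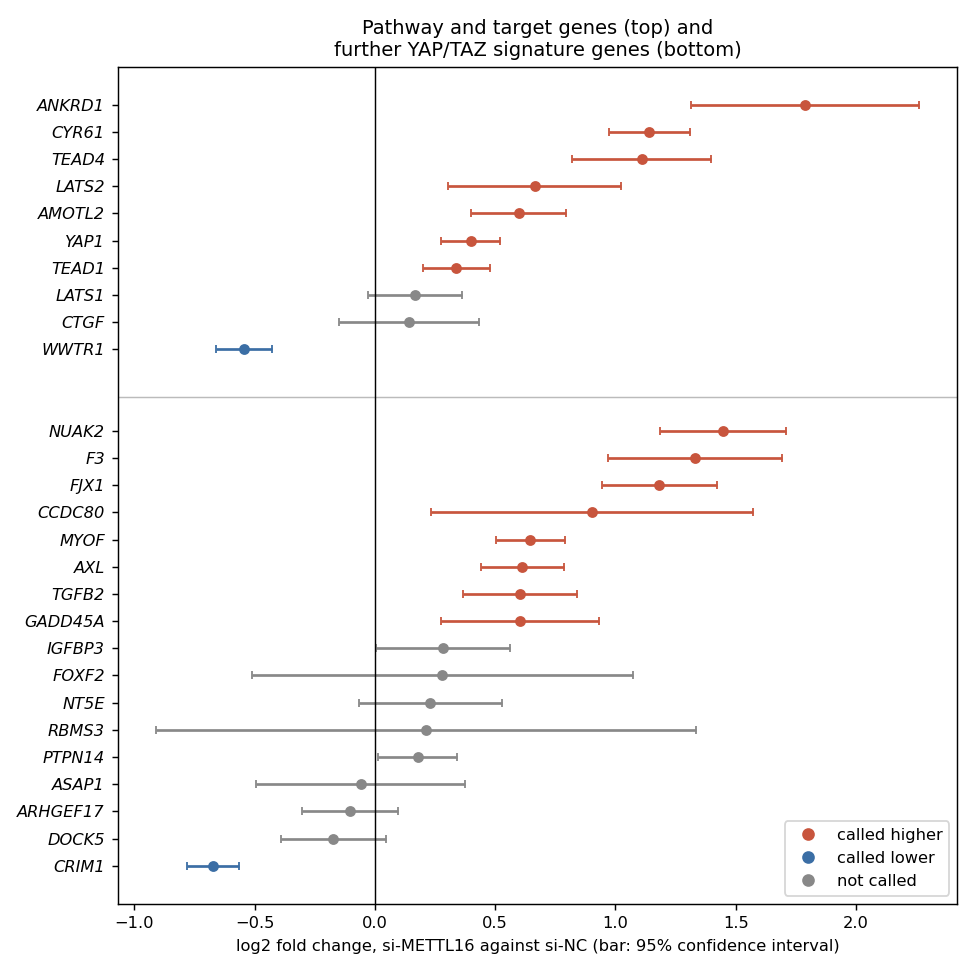
Log2 fold change of si-METTL16 against si-NC (horizontal axis) with its 95% confidence interval for the 10 pathway and target genes (top) and the 17 further signature genes (bottom), red for called higher, blue for called lower and grey for not called. ANKRD1 at 1.79 and NUAK2 at 1.45 head the 2 blocks, and WWTR1 at -0.54 and CRIM1 at -0.67 close them.

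Of 21 further Hippo kinases and scaffolds, 3 rose, 1 fell and 17 did not pass (median log2 fold change -0.05), which is 19.0% called beside 35.9% of all genes tested. NF2, whose product merlin brings LATS kinases to the membrane, rose from 3.70 ± 0.376 to 8.22 ± 1.11 FPKM (log2 fold change 1.17, adjusted p = 0.000494). RASSF1 and WWC1, a pair of scaffolds of the cascade, rose with log2 fold changes of 0.89 and 0.60 (adjusted p = 0.00365 and 0.00799), and WWC3, a relative of WWC1, fell (log2 fold change -0.96, adjusted p = 0.00231). The core kinases STK3 (MST2) and STK4 (MST1) were not called, with log2 fold changes of 0.27 and 0.19. Their partner SAV1 and the LATS activators MOB1A and MOB1B were at -0.08, -0.08 and -0.05. STK4 is imprecise here, since replicate 3 had 10.7 FPKM in control and 11.8 FPKM in silenced cells where the other 4 libraries had 3.77 to 4.55 FPKM, and its 95% confidence interval ran from -1.06 to 1.44. In the STRIPAK phosphatase complex, which opposes the kinases, STRIP2 and SLMAP rose (log2 fold changes 0.71 and 0.42), none fell and 9 of 11 genes were not called, which is 18.2% called.

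Of 15 further binding partners of YAP, TAZ and TEAD, 13 were tested, 4 of which rose and 3 of which fell (median log2 fold change 0.00085), where 18.4% of all genes tested were called higher and 17.5% lower. Besides TEAD2, AMOT and AMOTL1, described above, WTIP, a LIM protein that binds LATS kinases, and CSNK1E, a casein kinase that marks YAP for degradation, rose (log2 fold changes 0.49 and 0.47), and BTRC, the F-box protein that reads that mark, fell (log2 fold change -0.24, adjusted p = 0.0362). VGLL4, which competes with YAP for TEAD, had a log2 fold change of -0.21 and PTPN14, a phosphatase that retains YAP in the cytoplasm, one of 0.18, and neither passed (adjusted p = 0.0701 and 0.0893).

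**Figure D4:**
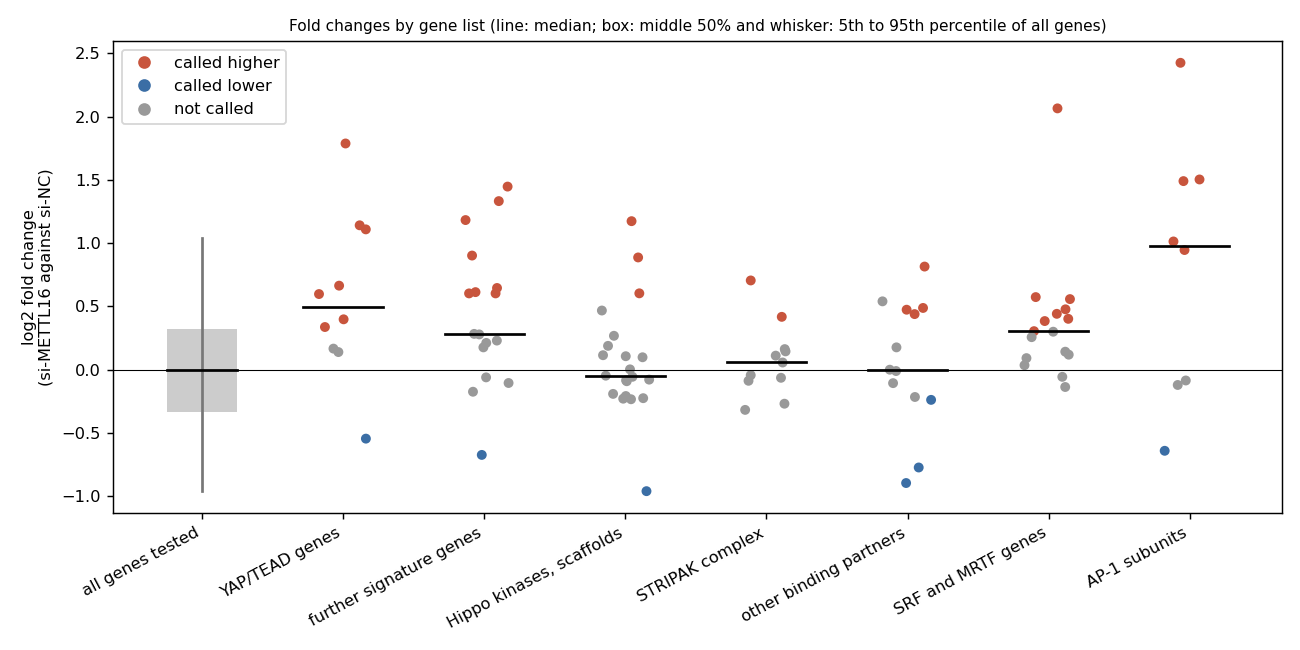
Log2 fold change of si-METTL16 against si-NC (vertical axis) for each tested gene of 7 lists (points, red for called higher, blue for called lower, grey for not called, black line for the median), beside the spread of all 15089 genes tested (box for the interquartile range, whiskers for the outer percentiles named in the title). The medians of the YAP/TEAD genes, 0.50, and of the further signature genes, 0.28, lie above that of the Hippo kinases and scaffolds, -0.05.

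CYR61, CTGF and ANKRD1 are also regulated by other factors that were measured here. The list of 16 tested genes held SRF, its co-activators MRTFA and MRTFB, and cytoskeletal genes linked to them. Of these 16, 8 rose and none fell (median log2 fold change 0.30), where 18.4% of all genes tested were called higher. SRF and MRTFB were not called (log2 fold changes 0.12 and 0.30). MRTFB is imprecise here, since si-NC replicate 1 had 1.78 FPKM where the other libraries had 4.01 to 4.77 FPKM. Its 95% confidence interval ran from -0.44 to 1.04. In limma on log2(FPKM + 1) without a filter on low values, 5 genes of the list were called. CNN1, a calponin, rose by 2.06 on the log2 scale from a mean of 0.0928 FPKM, TPM2 by 0.57 and CNN2 by 0.56, and the smallest rises were those of VCL, MRTFA and FHL2 (0.40, 0.39 and 0.31). Among 8 tested AP-1 subunit genes, whose products bind with TEAD at many enhancers, 5 rose and 1 fell, beside the same 18.4% called higher and 17.5% lower among all genes tested. FOSL1 rose from 4.66 ± 0.471 to 13.0 ± 2.28 FPKM (log2 fold change 1.503, adjusted p = 0.000481) and JUN from 25.6 ± 0.698 to 48.5 ± 5.00 FPKM (0.95, adjusted p = 0.000341). FOSB, FOS and FOSL2 rose by 2.42, 1.49 and 1.01 on the log2 scale, the first 2 from means of 0.0532 and 0.0924 FPKM, and JUNB fell (-0.64, adjusted p = 0.00107). FOSB overlaps ERCC1, which held 4956 counts beside 279 for FOSB, and reads of overlapping genes may be shared. For FOSL2, si-METTL16 replicate 1 had 4.19 FPKM, close to the 3.39 to 3.89 FPKM of the controls. Its replicates 2 and 3 had 8.70 and 8.59 FPKM. The part of SRF or AP-1 in the levels of the YAP/TEAD genes was not tested.

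The genes with the profile nearest to CYR61 over the 6 libraries, by the root mean square difference of log2 CPM centred on each gene's mean, were MERTK (0.03), CKS1BP7 (0.04) and PLAU (0.06), with log2 fold changes of 1.18, 1.17 and 1.08. MERTK encodes a receptor tyrosine kinase and PLAU the urokinase plasminogen activator, and CKS1BP7 is a pseudogene whose reads can be shared with its parent gene. Nearest to CTGF were ETV5 (0.03), HOXB9 (0.04) and RGMB (0.04), none of which was called, with log2 fold changes of 0.14, 0.13 and 0.18. These genes were picked for their likeness over the same 6 libraries, so fold changes close to those of CYR61 and CTGF follow from the choice.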

How the data were processed

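RNA-seq counts of 3 si-NC and 3 si-METTL16 samples of PANC-1 were used, grouped by title. The table that the authors deposited holds, in 1 column per sample, raw counts and FPKM values of each gene. The submitters' processing notes name HISAT2 2.0.4, StringTie 1.3.0 and GRCh38, and the counting program, annotation release and use of strand are not given in the sources used here. Without strand, reads of overlapping genes cannot be told apart. Genes overlapping one of the 10 held at most 0.302% of its counts. Among the further genes named, MOB1B, VGLL4, VCL, MRTFA, CRIM1, JUNB, FOSB, KRT7, CD68 and WISP3 overlap genes with 11.1% or more of their counts. KRT8 and KRT18 overlap each other. For FOSB, CD68, WISP3 and KRT18 an overlapping gene held more counts than the gene itself. The YAP1 pseudogenes in the table held 11 counts.

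Genes were filtered with filterByExpr (minimum count 10, minimum total 15), scaled by TMM and compared without a block by edgeR's quasi-likelihood test (version 4.0.16, run under R 4.3.3), and p-values were adjusted by Benjamini-Hochberg over the 15089 genes tested. The methods name limma, which was run as an alternative because raw counts are deposited. Library log2 ratios used log2(FPKM + 0.1), in which a constant length per gene cancels between groups except for the pseudocount. Levels of different genes used CPM per kilobase of exon (GENCODE v44), which need not be the annotation of the deposited table. The symbols of 27 genes that a spreadsheet had turned into dates were restored from their identifiers. Data were also simulated from these libraries, with 200 of 15089 genes changed. Of these, 70 of 100 genes with a log2 change of 1 and 95 of 100 with a log2 change of 2 were called, as were 9 unchanged genes. Far fewer genes changed there than the 5418 called here, which makes the adjusted threshold stricter. These shares therefore do not give the rate of detection in the data themselves.

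The genes, the lists (written from general knowledge) and the tests were chosen with earlier results of these data known. Named are the 10 genes, METTL16, the 3 highest and 3 lowest called genes of each further list, a set of Hippo regulators whatever their values, and the 3 profiles nearest to CYR61 and to CTGF. CCDC80, MYOF and AXL, also called higher, appear in the plot of fold changes. Windows before start sites are from RefSeq (GRCh38.p14). Alternatives were the replicate number as a block, DESeq2 1.42.0 (Wald test and size factors), limma 3.58.1 on voom values and on log2 FPKM, other filters and each sample left out.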

Additional observations from a re-analysis of the deposited data

How the results depend on the processing

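Of 150 values of the 10 genes under 15 alternatives, 148 kept their direction and their side of the threshold. Both exceptions were LATS2, at 0.61 on the log2 scale (adjusted p = 0.0508) without si-NC replicate 3 and at 0.55 (adjusted p = 0.0546) in limma on log2(FPKM + 1) without a filter on low values. The cause was not tested. The 4 log2 ratios between paralogs kept their direction in all 8 alternatives run on them, and with a library left out the smallest permutation p is 0.2. The length given to each gene was examined after seeing the data: with the deposited FPKM, LATS2 made up 42.4% of the 2 LATS kinases in control and 50.8% in silenced cells, and LATS1 stood above LATS2 in 4 of 6 libraries, while the orders given for YAP1 and WWTR1, TEAD1, AMOTL2 and CYR61 held in the same libraries with every length used. The shares themselves moved with the length. With the deposited FPKM, CYR61 made up 62.1% of CYR61 and CTGF in control and 76.6% in silenced cells. TEAD4 made up 11.0% and 21.2% of the TEAD genes, and AMOTL2 54.8% and 61.4% of the angiomotin genes. Of the SRF and MRTF genes, 8 were called, and 5 in limma on log2(FPKM + 1) without a filter. Leaving out 1 sample at a time gave 7 to 8 called among the 10 genes, 8 to 9 among the further signature genes, 10 to 12 among the Hippo and partner genes, 6 to 8 among the SRF and MRTF genes and 4159 to 4526 among all genes, beside 5418 with all samples. Replicate numbers are shared by the groups, but deviations of same-numbered samples correlated only at 0.0253, 0.0371 and 0.0298 across genes, so the numbers were not taken as pairs, although each sample correlated best with its own number. With the replicate number as a block, 5013 genes and 8 of the 10 genes were called, and no call among the 10 genes changed. DESeq2 size factors in place of TMM moved the median log2 fold change of all genes by 0.00049, and no alternative moved it by more than 0.00971. Both scalings take most genes as unchanged, so these shifts could not show a change shared by most genes. The lowest count of any of the 10 genes in a library was 216, for TEAD4, so that depth limits the low genes of the further lists, such as FOSB, FOS and CNN1, more than these 10.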
